A study of Mus musculus with 19 samples.

Results

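Chaperones help proteins fold, and in this study their 77 genes did not move as a block. After a short treatment of mouse embryonic stem cells with the splicing inhibitor pladienolide B (PlaB), the small heat shock gene Hspb1 and the TRiC subunit genes Cct3, Cct5 and Cct7 were higher, while the co-chaperone genes Dnaja1 and Hsph1 were lower. In blastoids, the inducible HSP70 gene Hspa1b and the endoplasmic reticulum (ER) co-chaperone gene Dnajb9 were highest on day 5. The genes were chosen by symbol alone: all rows of both count tables that carry a symbol of the Hspa, Hspb, Hspd, Hspe, Hsph, Hsp90, Dnaja, Dnajb or Dnajc series, or of Cct2 to Cct8 or Tcp1, without rows marked as pseudogenes. This gave 77 of 54352 symbols, namely 11 HSP70, 3 HSP110, 3 HSP90, 7 small heat shock, 2 mitochondrial chaperonin, 7 TRiC, 4 DNAJA, 13 DNAJB and 26 DNAJC genes. The remaining gene, Hspb11, bears a small heat shock symbol but encodes the intraflagellar transport protein IFT25. The TRiC genes Cct6a and Cct6b carry a letter after the digit and fall outside the symbol rule.

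Polyadenylated RNA was measured by Smart-seq2, a full-length cDNA method without molecular identifiers, in the mouse embryonic stem cell line TT2 and in blastoids, which are blastocyst-like aggregates formed from such cells in 3D microwells. TT2 cells grow on a layer of mouse fibroblasts whose division has been stopped (feeder cells). Blastoids were taken on days 1, 2, 3, 4 and 5 (3 libraries each), and the labels list all of them as treated with 20 nM PlaB for 6 h. In 2D culture there were 2 libraries of cells given 20 nM PlaB for 6 h and 2 of untreated control cells, all 54 h after seeding. No allele or transgene is named in the labels, and all groups derive from 1 cell line. Separate cultures for the replicates are not stated in the labels. The p-values therefore cover the spread among these libraries, and that spread may be technical only.

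HSP70 proteins bind and release unfolded stretches of protein in a cycle driven by ATP. J-domain proteins (the DNAJ genes) deliver substrates and start ATP hydrolysis, HSP110 proteins exchange the nucleotide, HSP90 matures signalling proteins, and the barrel-shaped chaperonins TRiC (cytosol) and Hspd1 with Hspe1 (mitochondria) enclose a substrate while it folds. Cytosolic stress genes are induced by the transcription factor HSF1 through heat shock elements, and ER chaperone genes through ER stress elements that ATF6 and its partners recognise.

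Promoter windows of 300 bases (250 before to 50 after the start, RefSeq, build GRCm38.p6) were found for 63 of the 77 genes. Those of the neighbouring Hspa1b (chr17:34959189-34959488, minus strand) and Hspa1a (chr17:34972107-34972406, minus strand) are shown because both genes rose on day 5 and because they are near copies. They differ at 4 of 300 bases, given in capitals.
Hspa1b: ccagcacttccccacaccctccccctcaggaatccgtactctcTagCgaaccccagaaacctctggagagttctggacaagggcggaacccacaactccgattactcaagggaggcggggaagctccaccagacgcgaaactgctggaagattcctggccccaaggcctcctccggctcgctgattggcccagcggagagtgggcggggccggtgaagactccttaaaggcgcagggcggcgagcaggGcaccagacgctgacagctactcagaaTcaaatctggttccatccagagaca
Hspa1a: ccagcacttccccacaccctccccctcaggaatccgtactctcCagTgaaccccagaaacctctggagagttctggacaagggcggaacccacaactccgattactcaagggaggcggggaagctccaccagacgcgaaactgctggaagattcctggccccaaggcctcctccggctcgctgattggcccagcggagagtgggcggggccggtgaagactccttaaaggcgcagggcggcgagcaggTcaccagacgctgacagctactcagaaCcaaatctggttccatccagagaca
The heat shock element was searched as GAANNTTCNNGAA or TTCNNGAANNTTC on both strands. It was present in 4 of 63 chaperone genes (6.35%: Dnajb6, Hspd1, Hspe1 and Hsph1), against 0.662% of 27025 genes in the promoter table. Only exact matches were counted, so imperfect elements are missed. The Hspa1b and Hspa1a windows above held no exact match, which does not show that they lack such an element. The windows of Hspe1 and Hspd1 share 285 bases, so their match is the same stretch of DNA. Hspe1 (chr1:55087898-55088197, plus strand) and Hsph1 (chr5:149636287-149636586, minus strand), both of which were lower after PlaB, follow with the matching bases in capitals. Not all genes with a match went that way. Hspd1 was also lower, but Dnajb6 was at 452 and 456 CPM (counts scaled to library size) in PlaB cells against 364 and 364 CPM in control cells. In Hspe1 a pair of matches overlap.
Hspe1: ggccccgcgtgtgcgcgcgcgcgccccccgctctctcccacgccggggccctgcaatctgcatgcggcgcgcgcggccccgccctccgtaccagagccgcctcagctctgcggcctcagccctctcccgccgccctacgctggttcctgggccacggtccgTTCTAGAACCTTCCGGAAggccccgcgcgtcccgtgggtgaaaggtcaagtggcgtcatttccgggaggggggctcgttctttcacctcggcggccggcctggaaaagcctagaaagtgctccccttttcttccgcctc
Hsph1: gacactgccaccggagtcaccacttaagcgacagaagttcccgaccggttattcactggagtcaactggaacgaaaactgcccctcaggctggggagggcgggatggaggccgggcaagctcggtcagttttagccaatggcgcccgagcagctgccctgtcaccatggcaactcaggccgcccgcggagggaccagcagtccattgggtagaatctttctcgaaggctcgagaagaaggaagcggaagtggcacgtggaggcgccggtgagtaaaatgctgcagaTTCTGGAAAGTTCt
The ER stress element was searched as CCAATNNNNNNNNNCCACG on both strands. It was present in 3 of 63 chaperone genes (4.76%: Hspa5, Hsp90b1 and Dnajc3), against 0.137% of all genes in the table. The windows of Hspa5 (chr2:34771840-34772139, plus strand), which rose on day 5, and of Hsp90b1 (chr10:86705395-86705694, minus strand), which did not pass the test there, are shown for comparison, with the matching bases in capitals. Hsp90b1 holds 2 matches, the second of them on the other strand.
Hspa5: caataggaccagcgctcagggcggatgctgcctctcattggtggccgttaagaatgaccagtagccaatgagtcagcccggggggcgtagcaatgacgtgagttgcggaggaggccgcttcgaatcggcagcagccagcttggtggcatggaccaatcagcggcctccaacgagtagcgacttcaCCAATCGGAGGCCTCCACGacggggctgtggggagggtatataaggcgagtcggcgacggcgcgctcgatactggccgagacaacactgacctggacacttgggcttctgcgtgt
Hsp90b1: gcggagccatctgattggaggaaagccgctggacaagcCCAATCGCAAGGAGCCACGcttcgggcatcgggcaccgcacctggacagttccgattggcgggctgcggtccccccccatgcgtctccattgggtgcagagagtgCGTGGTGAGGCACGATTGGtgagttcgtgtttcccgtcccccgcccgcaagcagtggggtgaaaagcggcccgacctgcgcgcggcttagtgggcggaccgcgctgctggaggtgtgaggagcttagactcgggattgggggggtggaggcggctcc
A match is a description of these windows and not a binding site.

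Levels are given as CPM, counts scaled to library size, on 1 scale for all 19 libraries. Library totals were 2515381 to 2765115 counts in PlaB cells, 3909958 to 4118725 in control cells and 3684787 to 7607021 in blastoids. The balance of GC-rich and GC-poor transcripts differed between groups. This GC contrast (median deviation of genes above 53.8% GC minus that of genes below 44.3%, in log2 units) averaged 1.01, 0.19, -0.76, 0.53 and -0.30 on blastoid days 1 to 5, 0.17 in PlaB cells and -1.07 in control cells. A smooth GC trend was also removed from each library, and values from that setting stand beside many of the results. Day 3 replicate 3 stood apart, with 13.5% mitochondrial counts against 5.50% and 4.71% in replicates 1 and 2 and a GC contrast of -1.24. Summed CPM of 18 fibroblast markers were 364 to 1361 in blastoids of all days, 6430 to 8156 in PlaB cells and 3375 to 4108 in control cells, with none of the 18 at 0 in a 2D library and up to 4 at 0 in a blastoid library. In bulk RNA, fewer cells of a type and less RNA per cell cannot be told apart.

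The chaperone genes together took 2.61% and 2.48% of the counts in PlaB cells, against 3.24% and 3.22% in control cells. In blastoids their share lay between 3.59% and 4.63%. Mitochondrial counts, which are part of the same totals, took 9.14% and 9.38% in PlaB cells, against 5.74% and 6.18% in control cells. Per kilobase of transcript, Hsp90aa1, the stress-responsive cytosolic HSP90, had the highest mean level of the family in every group, at 6477 CPM per kilobase on day 5, 2865 in PlaB cells and 4162 in control cells. Hspe1, the lid of the mitochondrial chaperonin, came second in every group other than day 1, with 3006 CPM per kilobase on day 5, 1803 in PlaB cells and 2939 in control cells. At the low end, 11 to 13 genes averaged under 1 CPM in each group. The testis-expressed Hspa1l had reads in 1 library alone, day 3 replicate 3, at 0.222 CPM. Of the 77 genes, 10 were too low for testing in any fit: Dnaja4, Dnajb5, Dnajb7, Dnajb8, Hspa12b, Hspa1l, Hspb2, Hspb3, Hspb7 and Hspb9.

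**Figure D1:**
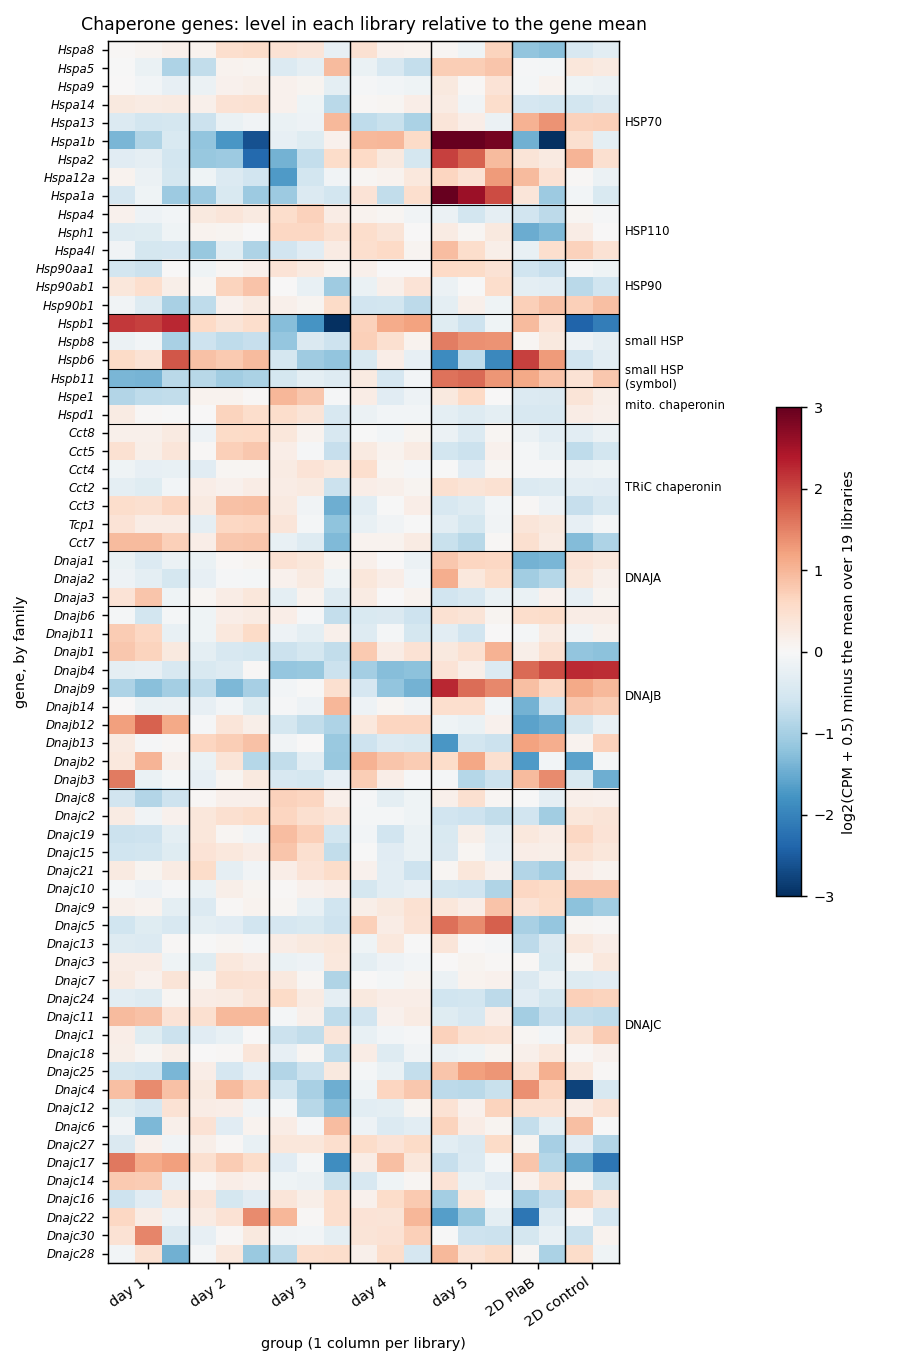
Level of each of the 67 chaperone genes tested in the joint fit (rows, by family) in each library (columns, by group), as log2(CPM + 0.5) minus the gene's mean over 19 libraries. The colour scale ends at -3 and 3, and the Hspa1b and Hspa1a rows stand out on day 5, Hspb1 on day 1 and Dnajb4 in 2D culture.

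The 2D comparison asked what blocking the SF3B complex of the spliceosome with PlaB does to the cells. Among 58 tested chaperone genes, 12 were higher in PlaB cells and 18 lower at an adjusted p under 0.05 (20.7% and 31.0%), where 25.9% of all 11183 tested genes were higher and 25.8% lower. The median log2 fold change was -0.09 over the chaperone genes and 0.00 over all tested genes. These shares are near those of all genes. Of the 30 calls, 19 held under all 10 alternative settings. Removing the GC trend turned the split into 17 higher and 16 lower. Of 17 tested fibroblast markers, 14 were higher and none lower in the PlaB cells (9 and 2 with the GC trend removed), so that a change cannot be assigned to stem cells or feeder cells, and the part of the feeder cells in the chaperone changes was not tested.

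Hspb1 encodes HSP27, a small heat shock protein that holds unfolding proteins and binds the actin cytoskeleton (chromosome 5, 135887919 to 135889563). It was at 574 and 393 CPM in the PlaB libraries, against 56.1 and 70.4 CPM in the control libraries. Both PlaB libraries lay far above both control libraries. The log2 fold change was 2.93 ± 0.17 (SE; adjusted p = 1.11e-13), and with the GC trend removed it was 1.49 (adjusted p = 1.01e-09). Hspb1 is a GC-rich transcript (60.7%). The small heat shock gene Hspb6, at 10.4 and 5.93 CPM in PlaB cells against 1.27 and 1.62 CPM in control cells, was also higher (2.46 ± 0.64, adjusted p = 0.00156, and 1.64 with the GC trend removed). Hspb8 did not pass the test, at 23.8 and 28.1 CPM in PlaB cells against 20.4 and 18.9 CPM in control cells (0.40 ± 0.27, adjusted p = 0.221).

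TRiC folds actin and tubulin. Of its 7 subunit genes that the symbol rule takes, 4 were higher after PlaB and none lower, where 25.9% of all genes were higher and 25.8% lower. Cct7 had 648 and 553 CPM in PlaB cells, against 190 and 245 CPM in control cells. Its log2 fold change was 1.47 ± 0.14 (adjusted p = 4.77e-11), or 0.87 with the GC trend removed. Cct5 was at 855 and 782 CPM in PlaB cells against 522 and 612 CPM in control cells (0.53 ± 0.13, adjusted p = 0.000607). Cct3 was at 718 and 638 CPM in PlaB cells against 438 and 505 CPM in control cells (0.52 ± 0.13, adjusted p = 0.000775). The call of Tcp1 (0.47 ± 0.12, adjusted p = 0.00169) was lost without control replicate 1 (adjusted p = 0.0724). Cct2, Cct4 and Cct8 did not pass, with log2 fold changes of -0.07, 0.12 and -0.01. After removal of the GC trend, Cct4 (0.45, adjusted p = 0.0025) and Cct8 (0.41, adjusted p = 0.00756) were called higher, while Cct2 was at 0.13 (adjusted p = 0.409). Cct6a, the remaining somatic subunit, was lower at 763 ± 9.61 CPM in PlaB cells against 1159 ± 11.1 CPM in control cells (mean ± SD, n = 2 each; log2 fold change -0.61, adjusted p = 6.96e-05). The Cct6a value with the GC trend removed was -0.42 (adjusted p = 0.00459).

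The cytosolic HSP70 gene Hspa8 and several partner genes of HSP70 were lower. Hspa8, the constitutive HSP70 (chromosome 9, 40800984 to 40810087), was at 1545 and 1474 CPM in PlaB cells against 2534 and 2850 CPM in control cells. Its log2 fold change was -0.84 ± 0.12 (adjusted p = 3.47e-07). Dnaja1, a J-domain partner of Hspa8 (chromosome 4, 40722150 to 40737149), was at 296 and 307 CPM in PlaB cells against 1061 and 985 CPM in control cells. With -1.77 ± 0.13 (adjusted p = 8.21e-14), Dnaja1 had the largest fall among the genes whose call held in every alternative. That order holds with the GC trend left in. With the trend removed, Hsph1 was at -1.35 and Dnaja1 at -1.25. Dnaja2, a close relative of Dnaja1, was at 127 and 145 CPM in PlaB cells against 334 and 294 CPM in control cells (-1.21 ± 0.14, adjusted p = 6.33e-09). Of the 3 HSP110 genes, which encode nucleotide exchange factors, Hsph1 and Hspa4 were lower. Hsph1 was at 80.8 and 90.1 CPM in PlaB cells against 264 and 229 CPM in control cells (-1.53 ± 0.15, adjusted p = 1.45e-10). Hspa4 was at 345 and 298 CPM in PlaB cells against 531 and 497 CPM in control cells (-0.68 ± 0.13, adjusted p = 4.32e-05). Hspa4l did not pass, at 14.7 and 24.9 CPM in PlaB cells against 28.0 and 23.5 CPM in control cells (-0.38 ± 0.28, adjusted p = 0.27, and 0.20 with the GC trend removed). Hspa14, a ribosome-associated HSP70, did not pass either, at 109 and 106 CPM in PlaB cells and 106 and 115 CPM in control cells (-0.05 ± 0.16, adjusted p = 0.822). Exchange factors of another family, Bag1 (1.13 ± 0.17, adjusted p = 1.03e-06) and Bag5 (1.67 ± 0.30, adjusted p = 1.82e-05), were higher in PlaB cells. With the GC trend removed, Bag1 was at 0.51 and Bag5 at 1.57. That family did not share a direction. In the same setting Bag4 was higher (1.59, adjusted p = 4.25e-08), Bag3 was lower (-0.96, adjusted p = 0.0166), and Bag2 and Bag6 were not called.

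The heat-inducible genes did not share a direction. Dnajb1, the main stress-inducible J-domain protein (chromosome 8, 83608193 to 83612653), was higher at 47.1 and 57.3 CPM in PlaB cells against 17.8 and 17.3 CPM in control cells. Its log2 fold change was 1.57 ± 0.24 (adjusted p = 9.7e-07). Hspa1b had 3 counts in the PlaB libraries together against 38 in the control libraries, a ratio of 0.124 (95% interval 0.0245 to 0.392, for counting error only). Its call rested on few reads and was lost with DESeq2 (adjusted p = 0.0572) and without PlaB replicate 2 (adjusted p = 0.0776). The fitted log2 fold change was -2.92, or -4.05 with the GC trend removed. Hspa1a and Hspa1b are near-identical copies whose reads may be split between them, and together they had 5 and 0 counts in PlaB cells against 27 and 14 in control cells. Hsp90aa1 was at 9693 and 9104 CPM in PlaB cells against 13907 and 13402 CPM in control cells (-0.54 ± 0.12, adjusted p = 0.000175), but with the GC trend removed the difference was -0.14 (adjusted p = 0.382). The constitutive Hsp90ab1 was at 2756 and 2709 CPM in PlaB cells against 1949 and 2227 CPM in control cells (0.39 ± 0.12, adjusted p = 0.00654). That call was lost with the GC trend removed (adjusted p = 0.195) and without control replicate 1 (adjusted p = 0.171).

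In mitochondria, both chaperonin genes were lower. Hspd1 (HSP60) had 766 and 765 CPM in PlaB cells against 1237 and 1178 CPM in control cells (-0.66 ± 0.12, adjusted p = 2.23e-05). Hspe1 (HSP10) had 1411 and 1380 CPM in PlaB cells against 2447 and 2101 CPM in control cells (-0.71 ± 0.12, adjusted p = 8.27e-06). The genes lie head to head and overlap by 112 bases on opposite strands, and without a stated strand setting reads in the overlap cannot be assigned. Hspa9, the mitochondrial HSP70, did not pass (519 and 582 CPM in PlaB cells, 495 and 478 CPM in control cells, adjusted p = 0.241), but was called higher with the GC trend removed (0.47, adjusted p = 0.00201).

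Of 11 ER genes, 1 was called higher and 3 lower, which is near the 25.9% and 25.8% of all genes for the lower calls and below it for the higher. Hspa5 (BiP), the main ER HSP70, was at 643 and 641 CPM in PlaB cells against 847 and 806 CPM in control cells. That difference of -0.37 ± 0.12 (adjusted p = 0.0114) was lost with the GC trend removed (adjusted p = 0.742), without PlaB replicate 2 (adjusted p = 0.0795) and without control replicate 1 (adjusted p = 0.0566). Hsp90b1 (GRP94) was at 736 and 833 CPM in PlaB cells and 740 and 848 CPM in control cells (-0.02 ± 0.12, adjusted p = 0.91), but with the GC trend removed it was 0.37 higher (adjusted p = 0.014). Dnajc3, Dnajb9 and Dnajb11 did not pass the test.

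Among other J-domain genes, Dnajc9, a histone chaperone, was at 111 and 123 CPM in PlaB cells against 35.2 and 40.2 CPM in control cells (1.63 ± 0.18, adjusted p = 1.38e-09). Dnajc4, at 22.0 and 13.0 CPM in PlaB cells against 0.765 and 5.67 CPM in control cells, rested on discordant control libraries. Its log2 fold change of 2.45 ± 0.53 was 1.59 without control replicate 1, 4.40 without control replicate 2 and 1.36 with the GC trend removed, and DESeq2 gave an adjusted p of 0.0945. Of those that were lower, Dnajb14, an ER membrane J-domain protein, was at 6.48 and 11.9 CPM in PlaB cells against 31.9 and 30.2 CPM in control cells (-1.75 ± 0.31, adjusted p = 1.61e-05). Dnajc2, which works at the ribosome, was at 178 and 130 CPM in PlaB cells against 336 and 347 CPM in control cells (-1.15 ± 0.15, adjusted p = 3.3e-08). Dnajc24, needed for diphthamide synthesis, was at 41.5 and 36.0 CPM in PlaB cells against 86.7 and 83.4 CPM in control cells (-1.14 ± 0.19, adjusted p = 5.72e-06). Dnajc5, Dnajc13 and Dnajc21 were also lower, by 0.87 to 1.12 on the log2 scale. In all, 10 of 32 tested DNAJ genes were lower and 4 higher, where 25.8% of all genes were lower and 25.9% higher.

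**Figure D2:**
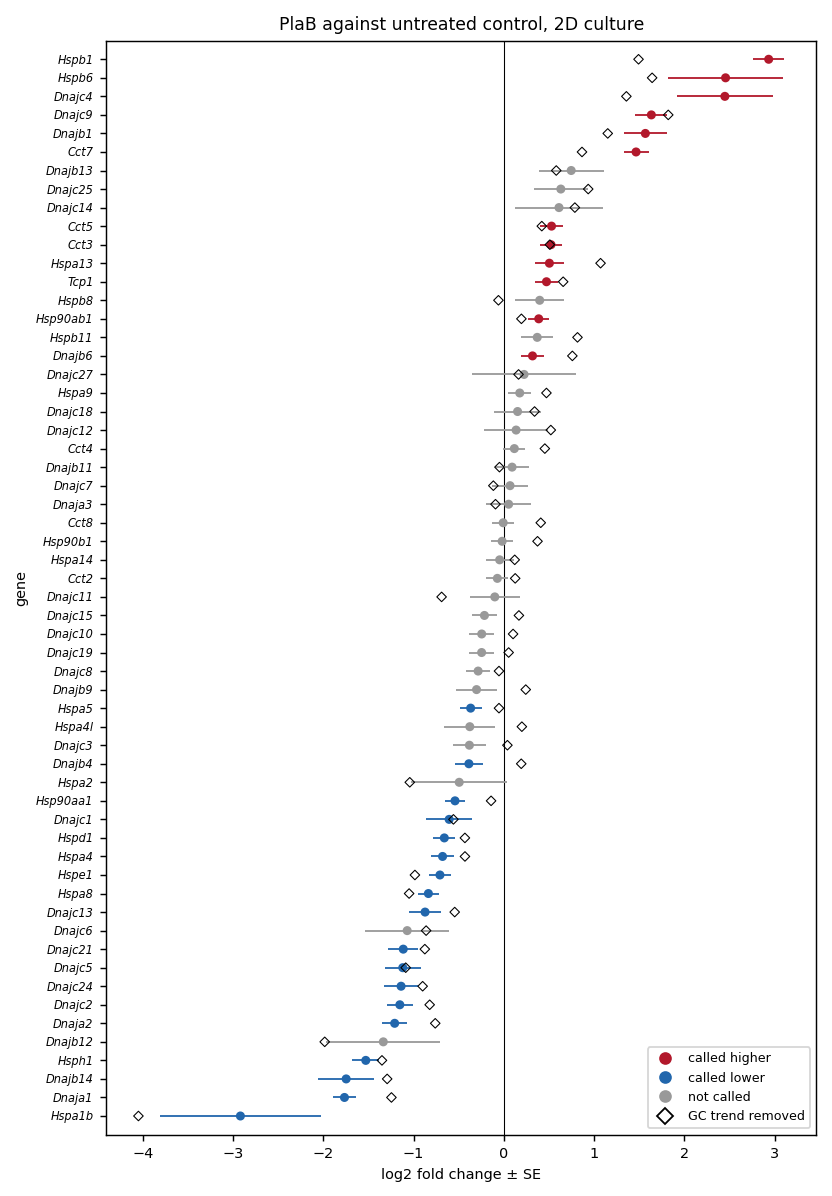
Log2 fold change of PlaB over control cells for the 58 tested chaperone genes (circles, with bars of 1 SE, coloured by call; 2 libraries per group). Open diamonds give the value with the GC trend removed, which moved Hspb1 to 1.49 and Hsp90aa1 to -0.14.

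Day 1 blastoids were compared with PlaB-treated 2D cells, the treated state nearest to them in the labels. Culture form and count table changed together here and cannot be told apart. Of 67 tested chaperone genes, 12 were higher on day 1 and 11 lower, against 21.9% and 17.0% of all 16304 tested genes. Their median log2 fold change was 0.24, against 0.14 over all genes. With scaling by total counts, which moved the median of all genes to 0.43, the split was 24 higher and 6 lower. The total of 23 calls was 15 without PlaB replicate 1 and 12 without PlaB replicate 2. Of the 23, 11 held in all 12 alternatives.

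Dnaja1, Hsph1 and Hspa8 stood higher on day 1 than in PlaB cells. Dnaja1 was at 692, 596 and 706 CPM on day 1 against 296 and 307 CPM in PlaB cells (1.14 ± 0.22, adjusted p = 0.000269). Hsph1 was at 173, 175 and 207 CPM on day 1 against 80.8 and 90.1 CPM in PlaB cells (1.11 ± 0.22, adjusted p = 0.000269). Hspa8 was at 3599, 3729 and 3884 CPM on day 1 against 1545 and 1474 CPM in PlaB cells (1.31 ± 0.28, adjusted p = 0.000732). The PlaB libraries are shared with the 2D comparison, where these genes were low in them. The largest rise was in Dnajb12, an ER membrane J-domain gene (18.6, 27.0 and 17.3 CPM on day 1 against 2.16 and 2.37 CPM in PlaB cells, 3.19 ± 0.40, adjusted p = 1.29e-06). Dnajc11, of the mitochondrial outer membrane, was at 72.6, 68.4 and 49.9 CPM on day 1 against 18.1 and 22.9 CPM in PlaB cells (1.63 ± 0.32, adjusted p = 0.000348). Hspb1 stood at 1300, 1235 and 1421 CPM on day 1, its highest level in the study, but its difference from PlaB cells (1.45 ± 0.39, adjusted p = 0.00566) was 0.51 with the GC trend removed (adjusted p = 0.269) and was lost without PlaB replicate 2 (adjusted p = 0.0967).

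Of 11 tested ER genes, 4 were lower on day 1 (Dnajb9, Hspa13, Hsp90b1 and Dnajc10) and 1 higher (Dnajb12), against 17.0% and 21.9% of all genes. Dnajb9 was at 10.4, 8.23 and 9.71 CPM on day 1 against 38.0 and 31.2 CPM in PlaB cells (-1.86 ± 0.31, adjusted p = 4.09e-05). Hspa13, an ATPase of the ER, was at 40.8, 37.1 and 37.6 CPM on day 1 against 112 and 139 CPM in PlaB cells (-1.71 ± 0.28, adjusted p = 3.55e-05). Hsp90b1 was at 417, 346 and 230 CPM on day 1 against 736 and 833 CPM in PlaB cells (-1.25 ± 0.27, adjusted p = 0.000879). Outside the ER, Dnajb4 was at 25.8, 25.9 and 22.2 CPM on day 1 against 102 and 122 CPM in PlaB cells (-2.19 ± 0.25, adjusted p = 2.63e-07). Hspb11 was at 16.6, 16.2 and 24.4 CPM on day 1 against 95.9 and 79.0 CPM in PlaB cells (-2.19 ± 0.25, adjusted p = 2.69e-07). Fibroblast markers were lower on day 1 for 16 of 17 tested genes, and their part in these differences was not tested.

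Across blastoid days, 42 of 66 tested chaperone genes (63.6%) differed between any days, where 68.0% of all 15121 tested genes did. By family this was 6 of 9 HSP70, 3 of 3 HSP110, 2 of 3 HSP90, 2 of 7 TRiC, 1 of 2 mitochondrial chaperonin, 3 of 3 small heat shock and 24 of 38 DNAJ genes, and Hspb11. Of the 42, 7 had their highest mean on day 1 and 5 on day 2, while 10 peaked on day 3, 1 on day 4 and 19 on day 5. Without day 3 replicate 3 the count was 47.

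Between day 5 and day 1, 22 of 66 chaperone genes were higher on day 5 and 14 lower (33.3% and 21.2%), against 25.5% higher and 25.5% lower among all genes. The median log2 fold change was 0.28, against -0.02 over all genes. With scaling by total counts the median of all genes moved to -0.35 and the split was 13 higher and 21 lower. Without day 5 replicate 1 the lower genes numbered 9. Of the 36 calls, 18 held in all 13 alternatives. Of 9 tested HSP70 genes, 6 were higher and none lower, against 25.5% in each direction among all genes. Of these HSP70 calls, only those of Hspa1a, Hspa1b and Hspa2 held in all 13 alternatives. Hspa1a and Hspa1b are near-identical copies whose reads may be split between them, so their calls are not independent. Beside these changes, trophectoderm markers, which mark the outer cells of the blastocyst, were higher on day 5 for 7 of 8 tested genes of a list of 10, with a summed level of 1128 to 2188 CPM on day 5 against 322 to 476 CPM on day 1. Cdx2 and Elf5 of that list were not among the tested genes. Cdx2 had 0 counts in day 5 replicates 2 and 3, while no trophectoderm marker was at 0 in a day 1 library. Pluripotency markers summed to 4766 to 9070 CPM on day 5 and 5142 to 6540 CPM on day 1, and primitive endoderm markers to 22.2 to 25.3 CPM on day 5 and 27.9 to 109 CPM on day 1. The part of cell makeup in the chaperone changes was not tested.

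Hspa1b and Hspa1a encode the inducible cytosolic HSP70 (chromosome 17, 34956436 to 34959238 and 34969190 to 34972156) and have no introns. Hspa1b started at 1.39, 2.12 and 3.05 CPM on day 1 and 1.66, 0.971 and 0.296 CPM on day 2. Day 3 libraries had 3.63, 3.30 and 4.88 CPM, those of day 4 had 9.15, 9.26 and 6.84 CPM, and those of day 5 had 107, 53.3 and 35.2 CPM. The day 5 libraries spread over 35.2 to 107 CPM and all lay above every library of the other groups. The log2 fold change of day 5 over day 1 was 4.95 ± 0.44 (adjusted p = 5.68e-08), and of day 5 over day 4 it was 2.98 ± 0.38 (adjusted p = 1.73e-05), or 3.70 with the GC trend removed. The step from day 2 to day 3 (2.02 ± 0.53, adjusted p = 0.00894) was 2.61 with the GC trend removed and was lost without day 2 replicate 3 (adjusted p = 0.0578). Hspa1a was at 7.89, 5.75 and 3.60 CPM on day 5 and at or under 0.998 CPM in all other libraries. With both copies summed, as their promoters above and coding parts are near-identical, there were 552, 226 and 205 counts on day 5 against 13, 11 and 22 on day 1. Removing the GC trend gave a day 5 over day 1 value of 5.97 for Hspa1b and of 5.77 for Hspa1a (4.69 with the trend left in). Hspa2, an intronless HSP70 gene known from the testis, was at 16.2, 13.1 and 7.20 CPM on day 5 against 2.66, 2.82 and 2.22 CPM on day 1 (2.31 ± 0.52, adjusted p = 0.00109).

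Other heat-inducible cytosolic genes differed in their calls between day 5 and day 1. Dnajb1 was at 50.9, 57.2 and 86.6 CPM on day 5 against 72.7, 66.0 and 50.5 CPM on day 1, and these groups overlapped (0.11 ± 0.22, adjusted p = 0.717). It was lowest on day 3, at 26.2, 28.5 and 24.6 CPM, and the step to day 4 (71.9, 48.7 and 56.2 CPM) was a rise of 1.14 ± 0.23 (adjusted p = 0.00123). Hsph1 was highest on day 3 (348, 351 and 313 CPM). Its day 5 level (267, 236 and 276 CPM) exceeded that of day 1 (173, 175 and 207 CPM) by 0.55 ± 0.19 (adjusted p = 0.0195), a call lost in 6 of 13 alternatives, among them total-count scaling (adjusted p = 0.313) and removal of the GC trend (adjusted p = 0.098). Hsp90aa1 was at 22248, 21778 and 19725 CPM on day 5 against 9930, 9386 and 14622 CPM on day 1 (0.98 ± 0.25, adjusted p = 0.00327). With the GC trend removed this was 0.59 (adjusted p = 0.0597). Dnaja1 was at 1392, 1244 and 1218 CPM on day 5 against 692, 596 and 706 CPM on day 1 (1.02 ± 0.20, adjusted p = 0.000344), and with the GC trend removed 0.50 (adjusted p = 0.0615).

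Among tested genes, Hspa1b and Hspa1a had the widest courses, with highest over lowest day means of 66.7 and 62.2. Next came Hspb1, at 17.1. Its day 1 libraries had 1300, 1235 and 1421 CPM, and those of day 2 had 452, 387 and 425 CPM. Day 3 libraries had 122, 86.8 and 22.0 CPM, those of day 4 had 483, 640 and 690 CPM, and those of day 5 had 231, 194 and 273 CPM. The days did not overlap between neighbours. The day 5 level was below that of day 1 by a log2 fold change of -2.44 ± 0.37 (adjusted p = 2.17e-05), or -1.24 with the GC trend removed (adjusted p = 0.00445). The library GC contrast took the same order over the days, 1.01, 0.19, -0.76, 0.53 and -0.30. With the GC trend removed, the fall to day 3 (-1.91, adjusted p = 0.00136) and the rise to day 4 (1.94, adjusted p = 0.000619) remained called, while the steps from day 1 to 2 (-0.69, adjusted p = 0.278) and from day 4 to 5 (-0.58, adjusted p = 0.204) did not. Dnajc4 (57.6% GC) also had its highest mean on day 1 and its lowest on day 3. It was at 4.57, 4.44 and 4.93 CPM on day 5 against 15.8, 22.6 and 15.4 CPM on day 1 (-1.87 ± 0.33, adjusted p = 9.49e-05), or -0.96 with the GC trend removed. Hspb6 fell to 0.208, 1.05 and 0.190 CPM on day 5, against 3.42, 3.06 and 9.02 CPM on day 1 (-3.44 ± 0.64, adjusted p = 0.00018).

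Hspb8, which works with BAG3 in the removal of misfolded proteins (chromosome 5, 116408491 to 116422864), went the other way. It was at 20.0, 21.4 and 11.4 CPM on day 1, 9.90, 16.8 and 14.7 CPM on day 3, 37.9, 32.1 and 24.5 CPM on day 4 and 67.1, 59.6 and 58.2 CPM on day 5. Day 5 was above day 1 by 1.88 ± 0.26 (adjusted p = 7.31e-06), with rises both to day 4 (1.18 ± 0.26, adjusted p = 0.00244) and to day 5 (1.00 ± 0.25, adjusted p = 0.0053). Bag3 itself averaged 46.4 ± 7.75 CPM on day 5 against 12.6 ± 3.18 CPM on day 1 (mean ± SD, n = 3 each; log2 fold change 1.95 ± 0.31, adjusted p = 3.95e-05, and 2.74 with the GC trend removed).

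In the ER, Dnajb9 (ERdj4), a J-domain partner of BiP that restrains the stress sensor IRE1 (chromosome 12, 44205559 to 44210326), was at 98.4, 65.3 and 55.7 CPM on day 5 against 10.4, 8.23 and 9.71 CPM on day 1. The log2 fold change was 3.01 ± 0.30 (adjusted p = 1.67e-07). It had passed through 19.1, 20.1 and 28.2 CPM on day 3 and 14.2, 8.59 and 7.27 CPM on day 4. Day 5 exceeded day 4 by 2.90 ± 0.29 (adjusted p = 2.66e-06). Hspa5 was at 1111, 1100 and 1174 CPM on day 5 against 578, 480 and 406 CPM on day 4 (1.24 ± 0.33, adjusted p = 0.00809) and 653, 580 and 349 CPM on day 1 (1.16 ± 0.33, adjusted p = 0.00607). The call against day 1 was lost with total-count scaling (0.81, adjusted p = 0.0508). On day 3, replicate 3 had 1281 CPM of Hspa5 against 499 and 553 CPM in the other libraries. Hsp90b1 was at 364, 501 and 413 CPM on day 5 against 417, 346 and 230 CPM on day 1 (0.44 ± 0.27, adjusted p = 0.182), and Dnajc3, another BiP partner, at 71.8, 75.0 and 72.6 CPM on day 5 against 83.5, 82.5 and 64.9 CPM on day 1 (-0.01 ± 0.21, adjusted p = 0.98). Of the genes with an ER stress element, Hspa5 was called and Hsp90b1 and Dnajc3 were not. Of all 11 ER genes, 4 were higher on day 5 and 3 lower, near the 25.5% of all genes in each direction.

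Further members rose late. Dnajc5, the cysteine string protein of secretory vesicles (chromosome 2, 181520485 to 181555133), was at 47.4, 55.5 and 51.3 CPM on day 1, at 117, 83.9 and 97.4 CPM on day 4 and at 225, 192 and 248 CPM on day 5. Its rise over day 1 was 2.17 ± 0.20 (adjusted p = 6.27e-08). Hspb11 was at 16.6, 16.2 and 24.4 CPM on day 1, 52.5, 30.3 and 41.1 CPM on day 4 and 135, 143 and 110 CPM on day 5 (2.82 ± 0.24 over day 1, adjusted p = 3.88e-08). Dnajc25 was at 24.7, 32.7 and 34.9 CPM on day 5 against 9.37, 8.93 and 4.99 CPM on day 1 (2.06 ± 0.33, adjusted p = 4.54e-05). Each of these 3 calls held in all alternatives.

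Of the chaperonin pair in mitochondria, Hspe1 was called on day 5. Hspe1 was at 1025, 1112 and 1124 CPM on day 1, at 2020, 2017 and 1929 CPM on day 2, at 3704, 3292 and 1832 CPM on day 3 and at 2293, 2811 and 1875 CPM on day 5. It stood above day 1 on day 5 by 1.17 ± 0.26 (adjusted p = 0.00103). Its ring partner Hspd1 did not pass, at 867, 813 and 867 CPM on day 5 against 1257, 1090 and 1066 CPM on day 1 (-0.36 ± 0.25, adjusted p = 0.233). In TRiC, Cct7 was lower on day 5 (293, 261 and 476 CPM) than on day 1 (907, 900 and 770 CPM), by -1.26 ± 0.27 (adjusted p = 0.000765). Cct3 was at 502, 538 and 662 CPM on day 5 against 1018, 987 and 1095 CPM on day 1 (-0.80 ± 0.31, adjusted p = 0.0351). Cct2 was called in the other direction (1068, 1005 and 1059 CPM on day 5, 625, 593 and 718 CPM on day 1, 0.76 ± 0.22, adjusted p = 0.00798), but not with total-count scaling (adjusted p = 0.0784) nor without day 1 replicate 2 (adjusted p = 0.0502). Dnaja3, the J-domain partner of mitochondrial HSP70, was at 20.3, 21.7 and 26.5 CPM on day 5 against 40.5, 54.3 and 27.9 CPM on day 1 (-0.77 ± 0.24, adjusted p = 0.0111), a call lost without day 1 replicate 2 (adjusted p = 0.0734) and without day 5 replicate 1 (adjusted p = 0.0502). Hspa9, Hspa8 and Hspa4 did not pass between these days, although Hspa4 was called lower on day 5 with the GC trend removed (-0.48, adjusted p = 0.045).

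**Figure D3:**
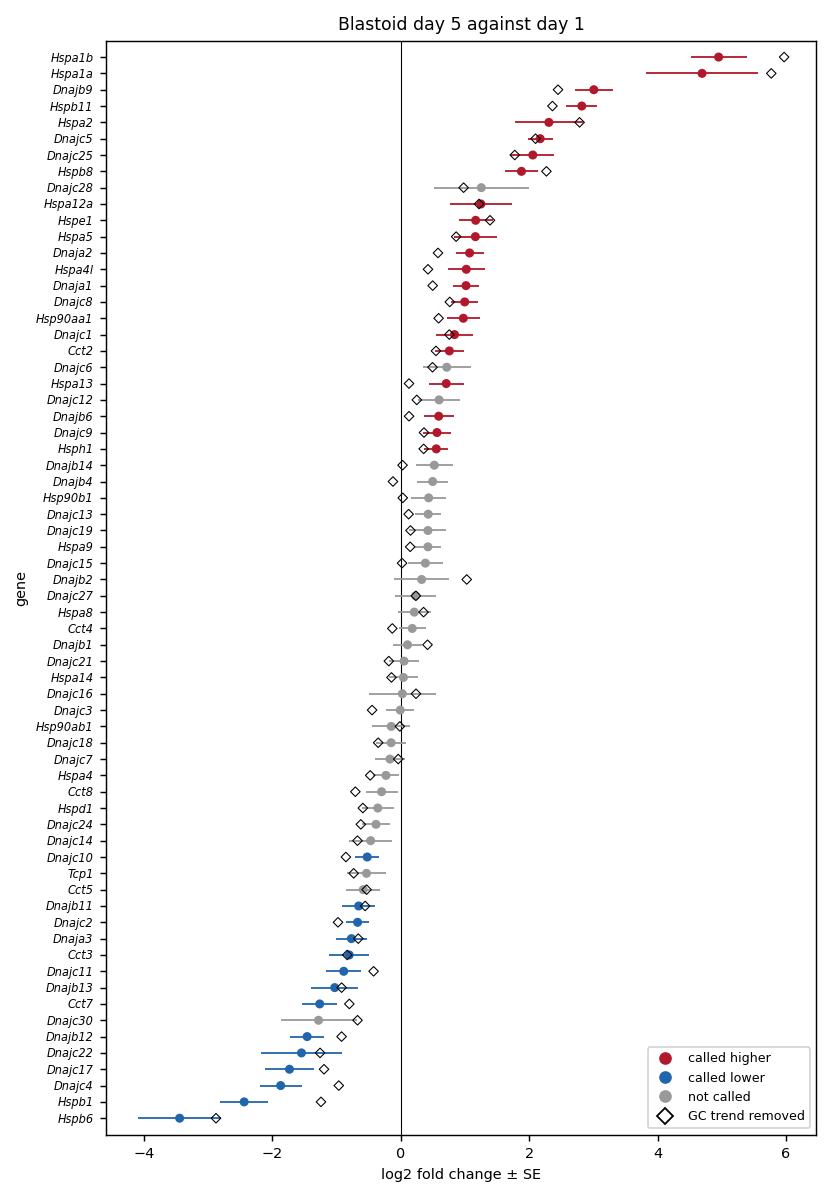
Log2 fold change of blastoid day 5 over day 1 for the 66 tested chaperone genes (circles, with bars of 1 SE, coloured by call; 3 libraries per day), with open diamonds for the value after removal of the GC trend. Hspa1b (4.95) and Hspa1a (4.69) lie at the top and Hspb6 (-3.44) and Hspb1 (-2.44) at the bottom.

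Among lower genes with a nuclear or organelle role, Dnajc17, a factor tied to splicing, was at 3.11, 3.92 and 5.12 CPM on day 5 against 17.0, 12.2 and 13.2 CPM on day 1 (-1.73 ± 0.38, adjusted p = 0.000748). Dnajb12 was at 6.85, 6.53 and 8.34 CPM on day 5 against 18.6, 27.0 and 17.3 CPM on day 1 (-1.46 ± 0.27, adjusted p = 0.000141). Dnajc11 was at 28.9, 26.7 and 43.0 CPM on day 5 against 72.6, 68.4 and 49.9 CPM on day 1 (-0.89 ± 0.27, adjusted p = 0.0101), and that call was lost with the GC trend removed (adjusted p = 0.115) and without day 5 replicate 2 (adjusted p = 0.0522).

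In the daily steps from day 1 to day 5, 7.58%, 21.2%, 22.7% and 28.8% of the 66 chaperone genes were called, against 6.96%, 25.6%, 27.9% and 28.6% of all genes, so the shares were near each other. From day 1 to day 2, 2 were higher and 3 lower, against 1.69% and 5.27% of all genes (1 and 3 with total-count scaling). Of these, Dnajb12 (-1.25 ± 0.26, adjusted p = 0.00478) held in every alternative. Hspe1 (0.89 ± 0.26, adjusted p = 0.0426) was lost in each run that left out a library. From day 2 to day 3, 3 were higher and 11 lower, against 12.0% and 13.5% of all genes. Leaving out day 3 replicate 3 gave 6 higher and 6 lower, day 2 replicate 2 gave 2 and 4, and day 2 replicate 3 gave 1 and 4. From day 3 to day 4, 8 were higher and 7 lower, against 15.6% and 12.3% of all genes. With the GC trend removed 8 were higher and 1 lower, without day 4 replicate 3 it was 7 and 2, without day 3 replicate 3 it was 9 and 11, and with total-count scaling 11 and 4. From day 4 to day 5, 13 were higher and 6 lower, against 14.1% and 14.5% of all genes. Total-count scaling, with the median of all genes at -0.23, gave 12 higher and 12 lower, and leaving out day 4 replicate 3 gave 9 and 3. Of these 19 calls, 10 held in all 13 alternatives: Dnajb4, Dnajb9, Dnajc5, Dnajc25, Hspa1a, Hspa1b, Hspa5, Hspb8 and Hspb11, which were higher on day 5, and Dnajc24, which was lower.

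**Figure D4:**
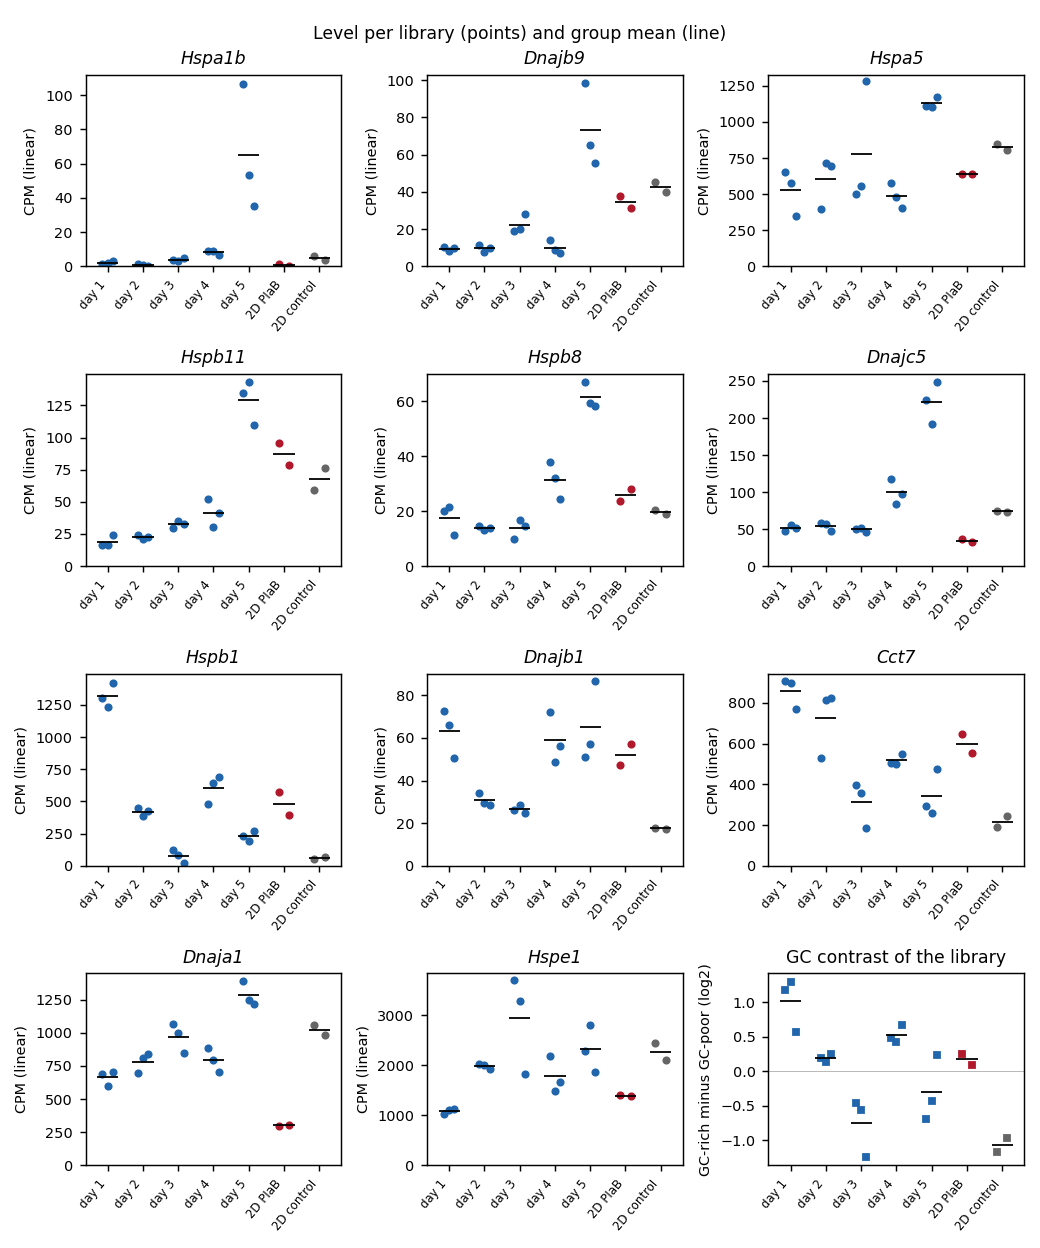
CPM of 11 chaperone genes in each library (points, linear axis from 0; line, group mean) on blastoid days 1 to 5 and in PlaB and control 2D cells, with the GC contrast of each library in the last panel. Hspa1b reaches 35.2 to 107 CPM on day 5, and Hspb1 follows the order of the GC contrast over the blastoid days.

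Correlation of the log2 fold change with transcript GC content is given as a description, since genes share libraries. For PlaB against control it was 0.29 over 58 chaperone genes (Spearman), where it was 0.44 over all 11113 tested genes with a GC value. Over the blastoid steps it lay between -0.48 and 0.68 across the chaperone genes. The strongest was 0.68 for day 4 against day 3 over 66 genes, where it was 0.57 over all genes.

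Beyond the symbol rule, a list of 35 genes of HSF1 and cytosolic cochaperones had 34 tested in 2D, of which 19 were higher and 7 lower in PlaB cells (median log2 fold change 1.01), and with the GC trend removed 12 were higher and 9 lower (median 0.33). Among all 11183 tested genes, 25.9% were higher and 25.8% lower. With the GC trend removed, 2640 of all genes were higher and 2452 lower. Genes in this and the next paragraph were picked as examples after their values were seen. Stip1, the adaptor between HSP70 and HSP90, averaged 218 ± 30.1 CPM in PlaB cells and 87.2 ± 3.34 CPM in control cells (SD, n = 2 each; 1.32 ± 0.15, adjusted p = 3.94e-09). Cdc37, which brings kinases to HSP90, averaged 71.8 ± 26.1 CPM in PlaB cells and 17.1 ± 2.17 CPM in control cells (2.07 ± 0.24, adjusted p = 1.36e-08). Both stayed called with the GC trend removed. Chordc1, an HSP90 partner, was lower at 97.4 ± 14.3 CPM in PlaB cells against 260 ± 7.29 CPM in control cells (-1.42 ± 0.15, adjusted p = 6.22e-10). Hsf1 did not pass (0.61 ± 0.51, adjusted p = 0.322). Between day 5 and day 1 the same list had 6 higher and 14 lower genes of 34, against 25.5% of all genes in each direction. Stip1 averaged 145 ± 32.7 CPM on day 5 against 475 ± 56.0 CPM on day 1 (n = 3 each, log2 fold change -1.65 ± 0.33, adjusted p = 0.000347).

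A list of 36 genes of ER folding and the unfolded protein response had 34 tested in 2D, of which 21 were higher and 4 lower in PlaB cells (median 0.69), and 15 and 2 with the GC trend removed. Of all tested genes, 25.9% were higher and 25.8% lower. Atf4, the transcription factor of the integrated stress response, averaged 212 ± 11.4 CPM in PlaB cells and 81.3 ± 9.77 CPM in control cells (1.38 ± 0.15, adjusted p = 1.38e-09, and 0.76 with the GC trend removed). Ddit3 (CHOP), a target of ATF4, averaged 37.1 ± 5.55 CPM in PlaB cells and 14.6 ± 0.774 CPM in control cells (1.34 ± 0.27, adjusted p = 6.84e-05). Xbp1 was lower, at 20.3 ± 3.09 CPM in PlaB cells against 37.9 ± 8.95 CPM in control cells (-0.89 ± 0.26, adjusted p = 0.00393). On day 5 against day 1, 13 of 36 were higher and 12 lower, against 25.5% of all genes in each direction. Atf4 averaged 216 ± 15.8 CPM on day 5 against 124 ± 19.3 CPM on day 1 (0.86 ± 0.18, adjusted p = 0.000479), while Sdf2l1, a BiP cochaperone, averaged 2.05 ± 0.463 CPM on day 5 against 28.9 ± 5.52 CPM on day 1 (-3.73 ± 0.35, adjusted p = 1.05e-07, and -2.92 with the GC trend removed).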

How the data were processed

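The authors deposited integer read counts for each gene symbol, with 2D cells and blastoids in separate tables. STAR 2.7.10b, HTSeq 0.13.5 and the build mm10 are named per the submitters' processing notes. Annotation release and strand setting were not given in the sources used here. Overlapping and antisense genes are therefore uncertain. Coordinates, GC content and introns came from GENCODE M21 (GRCm38), where all 77 members matched 1 gene. With counts summed over all 19 libraries, pseudogene rows held at most 1.35% of their parent's counts. Shares in single libraries were not computed. Hsp25-ps1, with 314 summed counts, was left out because no row carries its parent symbol.

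Genes were filtered with filterByExpr (minimum count 10, minimum total 15) and tested with edgeR 4.0.16 (R 4.3.3, Python 3.11.15): TMM scaling, quasi-likelihood F-test, Benjamini-Hochberg adjustment over all tested genes, threshold 0.05. All adjusted p-values are from edgeR unless another tool is named. The 2D fit held 4 libraries (biological coefficient of variation 0.127), the blastoid fit 15 (0.258) and the fit for day 1 against PlaB 19 (0.25). A fold change comes from the fit and is not the ratio of printed CPM, which share the scaling of the 19-library fit. The procedure was tested on simulated data. Those counts took their spread from the fits and held no GC trend, so they cannot show how the GC contrast affects the calls. Alternatives were RLE factors, total-count scaling, no filter, DESeq2 1.42.0, a replicate block, removal of a lowess GC trend (span 0.3) per library, the 2 groups alone and leaving out each library.

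Members and gene lists were chosen with earlier results of these data known. Named were a fixed set of 23 genes and, per comparison, those with the largest fold changes among called genes with at least 10 CPM and no overlap between groups (6 per direction for PlaB and for day 5, 4 for day 1 against PlaB and 2 for each daily step). Other genes described, such as Hspb6, Hspb8 and Cct3, were chosen after their values were seen.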

Additional observations from a re-analysis of the deposited data

How the results depend on the processing

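Scaling by total counts gave 24 higher and 6 lower chaperone genes for day 1 against PlaB (12 and 11 with TMM) and 13 higher for day 5 against day 1 (22 with TMM). Without a filter, 7 were lower for day 1 against PlaB. With the GC trend removed, 3 genes were called for day 2 against day 1 and 9 for day 4 against day 3, and with the libraries of both days alone 8 for day 3 against day 2 (5, 15 and 14 as reported). The cause was not tested. Leaving out each library in turn gave 24 to 29 calls for PlaB against control (9 to 12 higher, 15 to 18 lower), 12 to 21 for day 1 against PlaB (7 to 11 higher, 5 to 10 lower), 26 to 35 for day 5 against day 1 (15 to 21 higher, 9 to 15 lower), 2 to 4 for day 2 against day 1, 5 to 19 for day 3 against day 2, 9 to 20 for day 4 against day 3, 12 to 19 for day 5 against day 4 and 36 to 47 for any day. Where 1 library of a group remained, it was assumed to vary like the others.

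Of the values of named genes that passed the test in either setting, 2 turned sign, both with the GC trend removed: Hsp90b1 in PlaB cells (0.37, adjusted p = 0.014) and Dnajb4 in PlaB cells (0.19, adjusted p = 0.286, against -0.39 as reported). Of 3453 values of named genes under all alternatives, 3160 kept their side of the threshold, 200 no longer passed and 91 newly passed. Among the 3160, 154 that passed in neither setting changed sign (37 of them with the GC trend removed, such as Cct2 in PlaB cells).

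Replicates share only a number. Deviations of same-numbered libraries correlated at -0.02 in 2D and between -0.26 and 0.18 in blastoids, with 4 of 30 pairs over 0.1. Those of differently numbered libraries correlated at 0.02 in 2D and between -0.18 and 0.23 in blastoids, with 10 of 60 pairs over 0.1. Deviations were taken from the group mean, so in 2D the libraries of a group mirror each other. These values cannot show whether the samples were paired, and the main fits used no pairing. With a replicate block, 12 genes were higher and 17 lower in PlaB cells, 19 higher and 12 lower on day 5 against day 1, and 37 differed between any days. Depth limits genes such as Hspa1a, Hspb6 and Hspa1b in 2D, which rest on few reads.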

Other observations

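Of 16 tested genes of mitochondrial folding and proteolysis, 9 were higher and 2 lower in PlaB cells (7 and 3 with the GC trend removed), beside the lower Hspd1 and Hspe1. Of all tested genes, 25.9% were higher and 25.8% lower. Grpel1, the nucleotide exchange factor of mitochondrial HSP70, averaged 462 ± 37.6 CPM in PlaB cells and 158 ± 43.6 CPM in control cells (SD, n = 2 each; log2 fold change 1.55 ± 0.15, adjusted p = 4.94e-10, edgeR), and Trap1, the mitochondrial HSP90, averaged 67.7 ± 5.94 CPM in PlaB cells and 25.2 ± 6.39 CPM in control cells (1.43 ± 0.22, adjusted p = 1.1e-06). On day 5 against day 1, 3 of 17 were higher and 6 lower, against 25.5% of all genes in each direction. Clpp, a protease subunit of the mitochondrial matrix, averaged 34.5 ± 17.9 CPM on day 5 against 245 ± 13.8 CPM on day 1 (n = 3 each; -2.76 ± 0.33, adjusted p = 1.48e-06, and -1.93 with the GC trend removed).

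Of 16 tested partners of the chaperonins (prefoldin subunits, phosducin-like proteins, tubulin cofactors and Cct6a), 5 were higher and 7 lower in PlaB cells, and 4 and 2 with the GC trend removed. Of all tested genes, 25.9% were higher and 25.8% lower. Pfdn1, a prefoldin subunit, averaged 458 ± 56.9 CPM in PlaB cells and 260 ± 33.3 CPM in control cells (0.81 ± 0.14, adjusted p = 4.75e-06), whereas Vbp1, another subunit of the same complex, averaged 572 ± 48.1 CPM in PlaB cells and 766 ± 53.4 CPM in control cells (-0.42 ± 0.13, adjusted p = 0.00503). With the GC trend removed, the value of Vbp1 was 0.13 (adjusted p = 0.415). These examples were picked after their values were seen.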
